A study of Homo sapiens with 12 samples.

Results

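The genes described here encode the subunits of oxidative phosphorylation (OXPHOS), measured in IMR5, an established MYCN-amplified neuroblastoma cell line. They were taken by gene symbol: rows starting with MT-ND, MT-CO, MT-CYB or MT-ATP, and nuclear rows of the NDUFA, NDUFB, NDUFC, NDUFS, NDUFV, SDH, UQCR, COX4 to COX8 and ATP5 families. The rule matched 104 of 20029 rows in the selinexor table and 102 of 19610 in the knockdown table, and 101 rows stood in both. In the selinexor table these were 13 mitochondrially encoded genes, 75 nuclear genes for subunits, 14 pseudogenes, and ATP5S and ATP5SL, 2 genes now named DMAC2L and DMAC2 that encode no subunit. The last 2 kinds are given apart. Of the nuclear subunit genes, 74 reached a mean value of 10 in each table and were tested; ATP5L2 was the exception. By complex, the 74 were 36 of complex I, 4 of complex II, 8 of complex III, 11 of complex IV (NDUFA4 is counted there) and 15 of complex V. Subunits with other kinds of symbol, such as COX4I1 and CYC1, fall outside the rule.

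The 12 libraries form 4 groups of 3. IMR5 cells were grown with DMSO or with 100 nM selinexor, an inhibitor of the nuclear export receptor XPO1, which was given for 24 h. Other IMR5 cells were nucleofected with a negative control siRNA or with a single siRNA against XPO1, called #10, and RNA was taken after 72 h. Total RNA was made into strand-specific libraries in all 4 groups, and the labels do not say whether replicates are separate cultures. The p-values therefore reflect only how far these libraries scatter, and part of that may be technical.

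Oxidative phosphorylation passes electrons from NADH and succinate through complexes I to IV to oxygen, and complex V uses the resulting proton gradient to make ATP. Complexes I, III, IV and V are built from subunits of both genomes, while all 4 subunits of complex II are nuclear. The mitochondrial genes are transcribed inside the organelle as long polycistronic RNAs that are cut at tRNA genes. The nuclear genes are transcribed singly, and their mRNAs leave the nucleus and are translated in the cytosol. NRF1, GABP, YY1 and the ERR receptors are known regulators of many of the nuclear genes.

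The knockdown left 4260, 4377 and 4397 normalised counts of XPO1 in the XPO1 siRNA libraries, against 18568, 18950 and 18908 with control siRNA. This was a log2 change of -2.11 (SE 0.031, limma, Benjamini-Hochberg adjusted p = 2.91e-14). With DMSO the XPO1 mRNA stood at 17886, 18899 and 18357, and with selinexor at 15544, 22513 and 21165, groups that overlapped. Depth, estimated from the steps between low values, was 39.5 to 40.9 M reads with DMSO, 26.8 to 33.8 with selinexor, 40.6 to 54.0 with control siRNA and 33.5 to 55.8 with XPO1 siRNA. Selinexor replicate 1 stood apart from the other 2 selinexor libraries for the genes described here, so some results are given with and without it. Selinexor values given only once come from all libraries, and their size may still depend on replicate 1. Of 10 neuroblastoma markers 9 had rows in the selinexor table, all but TH. Their DMSO means included 30287 for MYCN and 4.95 for STMN2. Of 7 fibroblast markers 6 had rows there, PDGFRA at a mean of 4088 and COL1A1 at 675 with DMSO among them. Of 10 leukocyte and endothelial markers 3 had rows, summing to 45.6 to 106 per library over the selinexor table.

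Transcripts of the mitochondrial genome took a larger share of the library after both interventions, except in selinexor replicate 1. Nuclear OXPHOS transcripts took a smaller share, which with selinexor depended on the total used. The 13 mitochondrial genes made up 0.140%, 0.124% and 0.125% of the library total with DMSO, and 0.123%, 0.249% and 0.269% with selinexor. Selinexor replicate 1 lay just below the lowest DMSO library, and the other 2 lay above all of them. With control siRNA the share was 0.105%, 0.119% and 0.101%, and with XPO1 siRNA 0.172%, 0.171% and 0.177%, so these groups did not overlap. The nuclear subunits took 0.757%, 0.772% and 0.749% with DMSO and 0.610%, 0.709% and 0.688% with selinexor, all 3 below the DMSO range. RN7SL, the RNA of the signal recognition particle, took 9.40% to 9.72% of the total with DMSO and 12.6% to 16.0% with selinexor. With RN7SL left out of the totals the nuclear shares were 0.836%, 0.854% and 0.829% with DMSO and 0.698%, 0.843% and 0.801% with selinexor, so that replicate 2 lay within the DMSO range and the groups overlapped. In the knockdown table they took 0.830%, 0.853% and 0.827% with control siRNA and 0.771%, 0.749% and 0.773% with XPO1 siRNA, again without overlap. In bulk RNA a lower share can mean less of this RNA per cell or fewer cells that hold it. It can also mean more of other RNA in the library, and these cannot be told apart.

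The ratio of the mitochondrial to the nuclear sum moved the same way in every treated library. It was 0.184, 0.160 and 0.167 with DMSO and 0.202, 0.351 and 0.390 with selinexor. With control siRNA it was 0.126, 0.140 and 0.122, and with XPO1 siRNA 0.224, 0.228 and 0.229. Both pairs of groups were thus separate, selinexor replicate 1 included. The mean log2 ratio rose by 0.829 from DMSO to selinexor and by 0.815 from control siRNA to XPO1 siRNA (n = 3 each, no test). A ratio within a library does not depend on the size factor, and it shows unequal change, not which side moved.

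**Figure D1:**
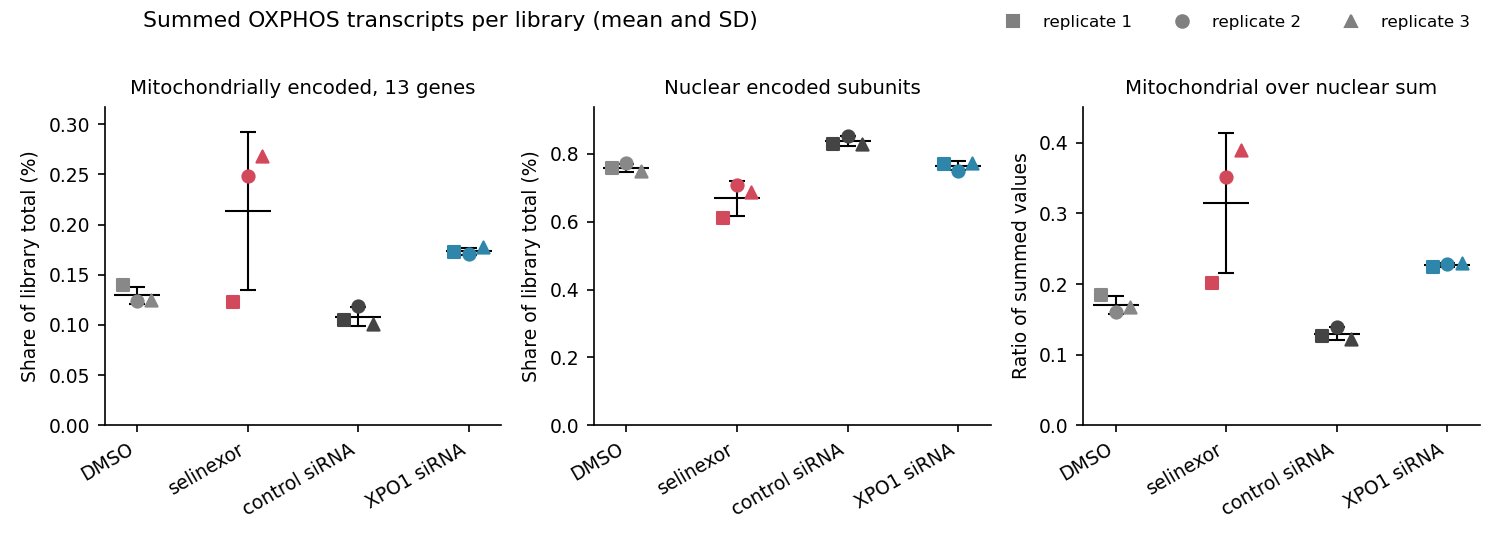
Summed values per library for the 13 mitochondrial genes (left, % of the library total), the nuclear subunit genes (middle, %) and their ratio (right). Points are single libraries, with the marker giving the replicate number, and bars are the mean and SD of 3; the mitochondrial share of the selinexor libraries spans 0.123% to 0.269%, while their ratio lies above every DMSO library.

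In each of the 4 complexes with subunits of both genomes, the mean ratio was higher after both interventions. For complex I, the mitochondrial over nuclear ratio averaged 0.0668 with DMSO and 0.183 with selinexor, and 0.0522 with control siRNA and 0.106 with XPO1 siRNA. For complex III, where the mitochondrial part is MT-CYB alone, it went from 0.0404 to 0.115 and from 0.0379 to 0.0817. Complex IV had by far the most mitochondrial RNA, with ratios of 1.01 and 1.60 in the selinexor table and 0.690 and 1.15 in the knockdown table. Complex V, with MT-ATP6 and MT-ATP8, had ratios of 0.0108 and 0.0282, then 0.00865 and 0.0188. The treated mean was 2.74 times the control for complex I under selinexor and 1.59 times for complex IV, and 2.03 and 1.67 times after knockdown.

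MT-ND5, a proton-pumping core subunit of complex I (chrM:12337-14148, plus strand, hg19, no intron), had the largest selinexor effect among the 13 mitochondrial genes with all libraries in the fit. It stood at 931, 869 and 843 normalised counts with DMSO and at 1776, 3430 and 3746 with selinexor. All 3 selinexor libraries were above all DMSO libraries, replicate 1 least so. The change was 1.69 on the log2 scale (SE 0.247, adjusted p = 0.000773 by limma), or 2.02 without selinexor replicate 1. With control siRNA it stood at 1052, 1013 and 903, and with XPO1 siRNA at 1957, 1968 and 1854. These groups were also separate, with a log2 change of 0.96 (SE 0.057, adjusted p = 1.22e-08).

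Under selinexor 8 of the 13 mitochondrial genes were higher and 0 lower, where 22.9% of all genes tested were higher and 26.3% lower. Their median log2 change was 1.04, beside -0.01 over all genes. For 7 of the 13 every selinexor library was above every DMSO library, where 28.8% of all genes were separate in that direction. The 8 were MT-ND1, MT-ND2, MT-ND4, MT-ND4L, MT-ND5, MT-CYB, MT-CO1 and MT-ATP6. Of these MT-ATP6 overlapped, at 1056, 1003 and 956 with DMSO against 1017, 2847 and 3068 with selinexor. The count depends on single libraries and on the variance model: it was 5 without DMSO replicate 2, selinexor replicate 2 or selinexor replicate 3, or without the intensity trend. MT-CO1, MT-ND4L and MT-ATP6 are the genes that lost their call there, MT-ATP6 and MT-ND4L also without DMSO replicate 1, and MT-ATP6 and MT-CO1 without DMSO replicate 3. Shares of all genes called in these fits were not computed.

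The other 5 genes split by library. MT-ND3, a small complex I subunit, was at 1953, 1798 and 1776 with DMSO and at 467, 2514 and 2202 with selinexor. MT-CO3, a complex IV core subunit, was at 15961, 14906 and 15080 with DMSO and at 6678, 19717 and 19100 with selinexor. In both genes replicate 1 was the lowest of the 6 libraries and replicates 2 and 3 were the highest. MT-CO2, MT-ND6 and MT-ATP8 showed the same layout. Without selinexor replicate 1 all 13 were higher, with a median of 1.46, where 28.2% of all genes were higher and 33.9% lower. MT-CO3 then changed by 0.34 (adjusted p = 6.53e-05, limma) and MT-ND3 by 0.35 (adjusted p = 0.000332, limma), the smallest changes of the 13. MT-ND4 changed by 2.06, the largest.

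After XPO1 siRNA all 13 mitochondrial genes were higher, where 25.9% of all genes tested were higher and 28.6% lower. All 13 also had groups without overlap, as 60.4% of all genes did in either direction. The changes ran from 0.38 for MT-CO3 to 0.96 for MT-ND5, with a median of 0.76, beside 0.00 over all genes. MT-CYB, the mitochondrial subunit of complex III, went from 1656, 1790 and 1484 with control siRNA to 2954, 3076 and 2868 with XPO1 siRNA. MT-CO1, the catalytic subunit of complex IV, went from 16736, 18904 and 16043 to 26762, 27014 and 27860. Spread between the XPO1 siRNA libraries was small: their medians over the 13 genes, against the control siRNA mean, were 0.84, 0.68 and 0.77. The same medians for the selinexor libraries against the DMSO mean were 0.17, 1.38 and 1.54.

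**Figure D2:**
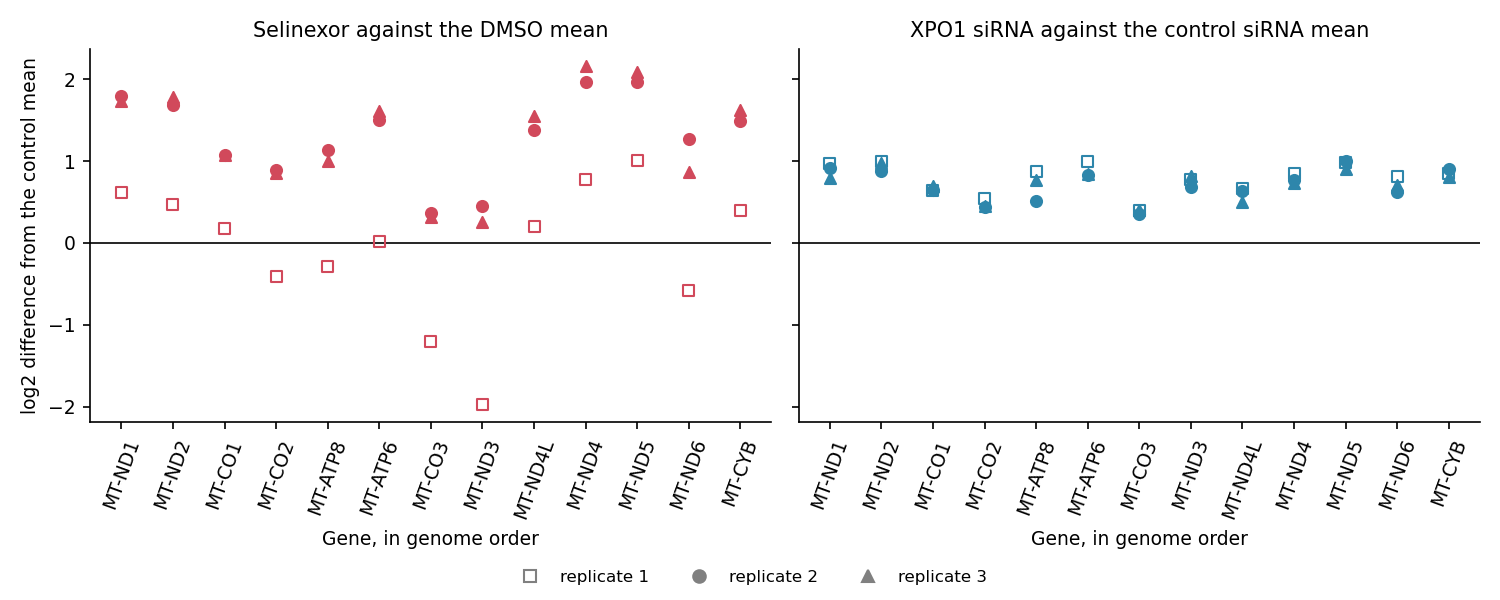
Difference of each treated library from its control group mean (log2) for the 13 mitochondrial genes, in genome order, for selinexor (left) and XPO1 siRNA (right). Open squares are replicate 1, filled circles replicate 2 and filled triangles replicate 3; selinexor replicate 1 lies below the other selinexor libraries for all 13 genes, and the XPO1 siRNA libraries lie together above 0.

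Per kilobase of gene the mitochondrial mRNAs differed widely among themselves. With DMSO the highest was MT-CO3, at 19536 normalised counts per kb, followed by MT-CO1 at 11115 and MT-CO2 at 7728. MT-ND6 was the lowest, at 264, and is the one gene of the 13 on the other strand (chrM:14149-14673). The highest was 73.9 times the lowest with DMSO, 45.7 times with selinexor, 133 times with control siRNA and 106 times with XPO1 siRNA. MT-CO3 led in 3 groups, and MT-CO1 led with selinexor, at 19725 per kb against 19343 for MT-CO3, values that did not differ beyond their spread. That lead came from replicate 1, at 12528 for MT-CO1 and 8518 for MT-CO3; in the other 2 selinexor libraries MT-CO3 was the highest, as in the other groups. MT-ND5 ranked 12 of 13 with DMSO (486 per kb) and 11 in the other 3 groups. A per kb level still depends on how reads shared with other copies were counted, a step no source here describes.

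MT-ATP8 and MT-ATP6 share bases, as do MT-ND4L and MT-ND4, so their counts may not be independent, and no source here says how reads in the shared part were assigned. The last 60 bases of MT-ATP8 and of MT-ND4L are shown from GENCODE 29, 5′ to 3′, with the stretch that also belongs to MT-ATP6 or MT-ND4 in capitals. They are chrM:8513-8572, with 46 shared bases, and chrM:10707-10766, with 7. Each capital stretch opens with ATG, the start codon of the downstream gene.
MT-ATP8: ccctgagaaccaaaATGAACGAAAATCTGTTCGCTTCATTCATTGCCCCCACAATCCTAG
MT-ND4L: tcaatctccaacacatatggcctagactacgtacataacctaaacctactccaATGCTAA
MT-ATP8, a short subunit of complex V with 207 bases, changed by 0.72 after knockdown and MT-ATP6 by 0.89. MT-ND4L changed by 0.60 and MT-ND4 by 0.78. Genes with shared bases thus both rose after knockdown, each by its own amount.

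The ribosomal RNAs of the same genome were measured as well. MT-RNR2, the large mitochondrial rRNA, had means of 31743 ± 4972 with DMSO and 67978 ± 25154 with selinexor (SD, n = 3). It changed by 1.04 with selinexor (adjusted p = 0.0104, limma) and by 0.60 after knockdown (adjusted p = 5.99e-07). MT-RNR1, the small rRNA, had values of 0.27 (SE 0.269) and 0.14 (SE 0.131), and neither passed the test. Without selinexor replicate 1 MT-RNR1 was higher with selinexor, by 0.55 (adjusted p = 0.00935, limma). Rows for nuclear copies of mitochondrial genes were few, 8 in the selinexor table and 4 in the knockdown table. They summed to 0.126% to 0.326% of the mitochondrial sum in the first and to 0.0338% to 0.137% in the second. The mean share was 0.148% with DMSO and 0.283% with selinexor, and 0.0545% with control siRNA and 0.114% with XPO1 siRNA. Their mean sums were 68.2 and 198, then 25.0 and 79.8 normalised counts, so these low values rose by more than the mitochondrial sum.

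Nuclear OXPHOS genes changed less in size, and more of them were lower than higher. After XPO1 siRNA 60 of 74 were lower and 1 higher, where 28.6% of all genes were lower and 25.9% higher. Groups did not overlap for 63 that were lower and 1 that was higher, as for 31.2% and 29.2% of all genes. The median log2 change was -0.21, with a range from -0.52 to 0.13. With selinexor 25 of 74 were lower and 1 higher, with a median of -0.26 and a range from -0.84 to 1.48. These 25 are 33.8% of the 74, not far from the 26.3% of all genes that were lower, while 22.9% of all genes were higher. Groups did not overlap for 37 that were lower and 2 that were higher, where 32.9% and 28.8% of all genes were separate in these directions. The count lower was 39 without selinexor replicate 1 (with 6 higher), 40 without selinexor replicate 2, 16 without DMSO replicate 1 and 14 without DMSO replicate 2. In the first of these fits 33.9% of all genes were lower and 28.2% higher. For the other alternatives given here the shares over all genes were not computed. Scaling the selinexor libraries to equal totals without mitochondrial genes and RN7SL moved the median of all genes to 0.15, and the nuclear OXPHOS median to -0.10 with 15 lower.

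Medians were below 0 for each complex in both comparisons. With selinexor they were -0.24 for complex I, -0.46 for complex II, -0.33 for complex III, -0.16 for complex IV and -0.34 for complex V. After knockdown they were -0.20, -0.28, -0.27, -0.12 and -0.24 in the same order. Complex IV was nearest 0 in both. The counts lower under selinexor were 12 of 36, 2 of 4, 4 of 8, 1 of 11 and 6 of 15, and after knockdown 28, 4, 7, 7 and 14, where 26.3% and 28.6% of all genes were lower. The selinexor shares of complexes I and V, 33.3% and 40%, were not far from the first of these, and that of complex IV, 9.09%, was below it. No test of one complex against another was made. Without selinexor replicate 1 the selinexor median of complex IV was 0.07, of the other sign, and those of complexes I, II, III and V were -0.21, -0.29, -0.23 and -0.15.

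**Figure D3:**
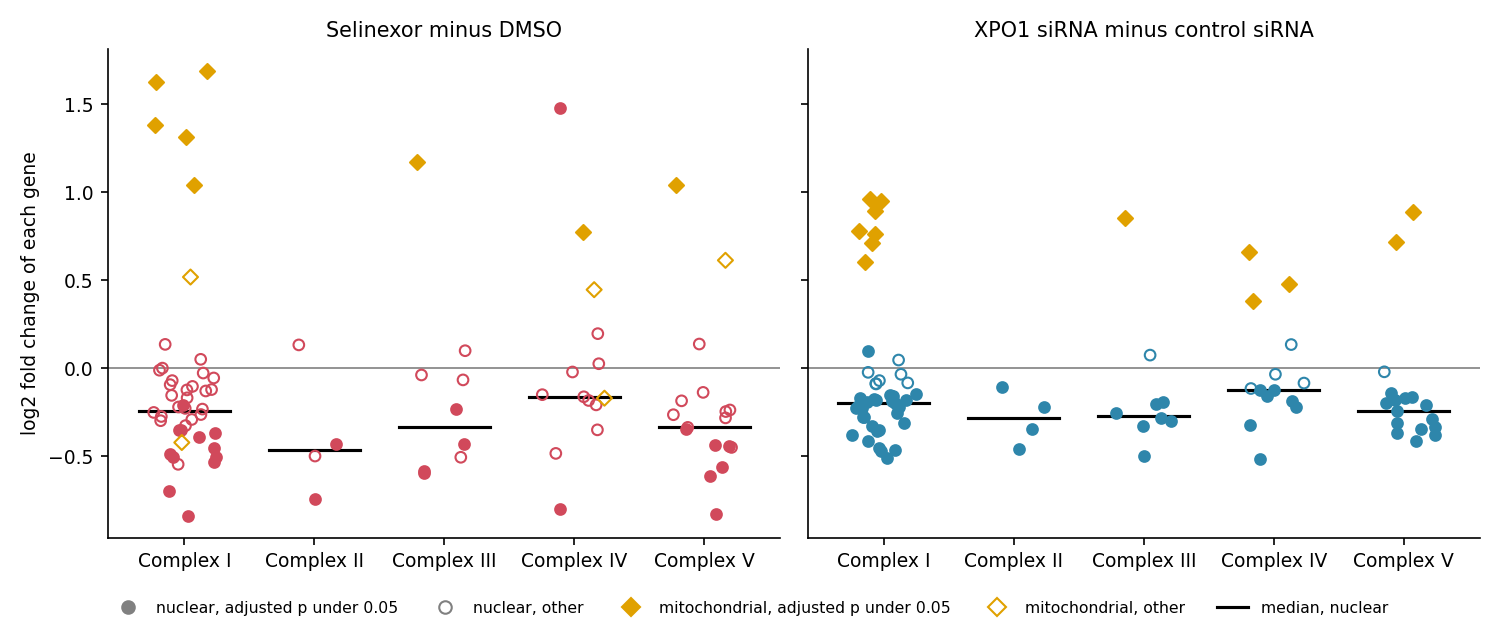
log2 fold change of each OXPHOS gene by complex, for selinexor (left) and XPO1 siRNA (right). Circles are nuclear genes and diamonds mitochondrial genes, filled where the adjusted p was under 0.05, and the black line is the nuclear median, which is below 0 for all 5 complexes on both sides.

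In complex I the largest fall with selinexor was in NDUFA6, an accessory subunit (chr22:42481529-42486959, hg19, minus strand). It went from 3644, 3741 and 3642 with DMSO to 1801, 2259 and 2130, with no overlap. The log2 change was -0.84 (SE 0.098, adjusted p = 0.000233, limma), and -0.74 without selinexor replicate 1. After knockdown it went from 4158, 4261 and 4297 to 3400, 3240 and 3337, a log2 change of -0.35. NDUFB6, an accessory subunit of the membrane arm, changed by -0.70 with selinexor and -0.51 after knockdown. NDUFS3, a core subunit of the peripheral arm, changed by -0.49 and -0.26. NDUFS6 changed by -0.46 after knockdown (adjusted p = 6.12e-07). With selinexor its value was -0.33, with an adjusted p of 0.0727 by limma, and without selinexor replicate 1 it fell by 0.47 (adjusted p = 8.24e-05).

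NDUFA5, another peripheral arm subunit (chr7:123177051-123198309, hg19), was the 1 nuclear gene higher after knockdown. It stood at 3315, 3565 and 3399 with control siRNA and at 3762, 3629 and 3620 with XPO1 siRNA. The groups were separate by a narrow margin, and the log2 change was 0.10 (SE 0.038, adjusted p = 0.0412, limma). This call is fragile: its adjusted p was 0.0677 to 0.141 in the fits in which it was lost, those without control siRNA replicate 1 or 3 or without any XPO1 siRNA library among them. With selinexor it was not past the threshold, at -0.22 (SE 0.210), or at 0.06, of the other sign, without selinexor replicate 1.

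Complex II, succinate dehydrogenase, links the respiratory chain to the TCA cycle. SDHB, its iron-sulphur subunit, went from 653, 686 and 667 with DMSO to 432, 553 and 511 with selinexor, and from 911, 983 and 870 with control siRNA to 690, 654 and 662 with XPO1 siRNA. Both pairs of groups were separate, with log2 changes of -0.43 (SE 0.110, adjusted p = 0.012) and -0.46 (SE 0.058, adjusted p = 1.55e-05). SDHD, a membrane anchor, changed by -0.74 and -0.35, and by -0.46 with selinexor when replicate 1 was left out. The selinexor calls were lost without DMSO replicate 2 for SDHB (adjusted p = 0.0554, limma) and without any one DMSO library for SDHD (adjusted p from 0.0547 to 0.0726). SDHA, the flavoprotein, changed by -0.11 after knockdown (adjusted p = 0.0435). With selinexor SDHA stood at 3964, 3136 and 2990 against 2933, 3033 and 3178 with DMSO, and did not pass the test.

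Complex III showed its largest nuclear change after knockdown in UQCRFS1, the Rieske iron-sulphur protein (chr19:29698173-29704448, hg19). It went from 4222, 4241 and 4083 with control siRNA to 2976, 2863 and 3024 with XPO1 siRNA. The log2 change was -0.50 (SE 0.037, adjusted p = 9.68e-08). With selinexor it was -0.59 (SE 0.093, adjusted p = 0.00112), from 2938, 3144 and 3023 to 1823, 2213 and 2040. All 6 treated libraries were below their controls. UQCRQ changed by -0.60 with selinexor and -0.33 after knockdown. UQCRC1, a core protein of the complex, changed by -0.23 and -0.30.

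Complex IV was the most mixed. COX8A, its small membrane subunit in most tissues (chr11:63742079-63744015, hg19), went from 8387, 8397 and 8609 with control siRNA to 6213, 5822 and 5742 with XPO1 siRNA. That was the largest fall of the 74 after knockdown, -0.52 on the log2 scale (SE 0.037, adjusted p = 6.92e-08). With selinexor it went from 5307, 5527 and 5161 to 2321, 3745 and 3288, a change of -0.80 (SE 0.159, adjusted p = 0.00365). The isoforms COX6A1 and COX7A2 had values of 0.03 and -0.16 with selinexor, neither past the threshold. The second rests on selinexor replicate 1: without it COX7A2 was higher, by 0.18 (adjusted p = 0.017, limma). After knockdown COX6A1 changed by -0.19 (adjusted p = 0.000301), and COX7A2 had a value of -0.12 (adjusted p = 0.0667).

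COX6B2, the isoform of subunit 6B best known from testis, was the 1 nuclear gene higher with selinexor. It rose from 15.8, 23.6 and 24.6 with DMSO to 63.7, 59.7 and 57.8, a log2 change of 1.48 (SE 0.229, adjusted p = 0.00103). The groups were far apart, at a low level: a minimum mean of 50 leaves the gene out of the test. With control siRNA it was already at 57.1, 77.0 and 48.8, and with XPO1 siRNA it was at 61.2, 75.3 and 61.8, which overlap. Levels in the 2 tables were normalised separately.

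Complex V had its largest fall in ATP5G1, which encodes a copy of the c-ring subunit (chr17:46970127-46973233, hg19). With DMSO it stood at 4741, 5057 and 4838, and with selinexor at 2131, 3373 and 2877. The log2 change was -0.83 (SE 0.152, adjusted p = 0.00244), and -0.65 without selinexor replicate 1. After knockdown it changed by -0.42 (SE 0.038, adjusted p = 8.36e-07). ATP5E, the epsilon subunit of the central stalk, changed by -0.61 and -0.38. ATP5A1, the catalytic head's alpha subunit and one of the most abundant of these mRNAs, went from 29450, 29872 and 29502 with control siRNA to 24424, 23480 and 23630 with XPO1 siRNA. Its selinexor value was -0.19 (adjusted p = 0.125).

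The 2 comparisons have separate controls, so their values can be set beside each other. Of the 25 nuclear genes lower with selinexor, 23 were also lower after knockdown, which is 92% of the first list and 38.3% of the second. Since 81.1% of the 74 were lower after knockdown, most of any 25 of them would be. Over 17332 genes tested in both tables, 66.7% of those lower with selinexor were also lower after knockdown. No gene was called in opposite directions. NDUFB2 and NDUFS1 were the 2 lower with selinexor alone at the threshold. Across the 74 nuclear genes the log2 changes had a Pearson r of 0.52 and a Spearman rho of 0.47, and across the 13 mitochondrial genes 0.66 and 0.77. These describe genes within the same libraries, not independent replicates. Without selinexor replicate 1, 35 genes were lower in both, and COX5B, NDUFB5 and NDUFS4 were higher with selinexor and lower after knockdown. The overlap over all genes was not computed for that fit.

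**Figure D4:**
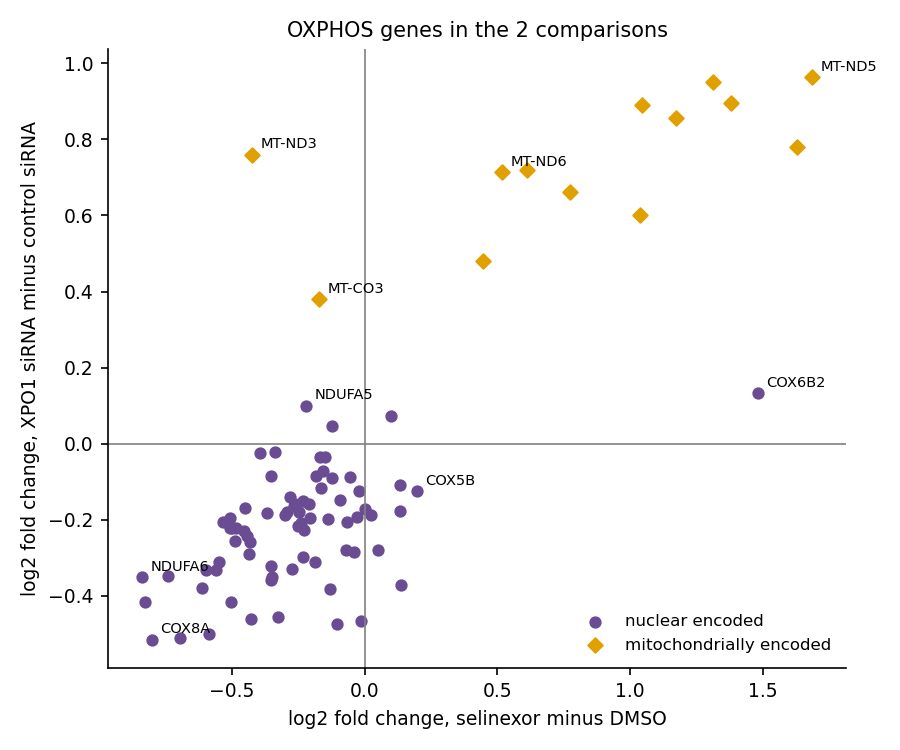
log2 fold change with selinexor (x axis) against log2 fold change after XPO1 siRNA (y axis) for 74 nuclear genes (circles) and 13 mitochondrial genes (diamonds). Most nuclear genes sit at the lower left; all 13 mitochondrial genes are above 0 on the y axis, with MT-ND3 and MT-CO3 left of 0 on the x axis.

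The difference between the effects was tested on all 12 libraries, with selinexor minus knockdown as its direction. At the threshold 11.6% of all genes were higher and 20.2% lower. None of the 13 mitochondrial genes passed in limma. The nearest was MT-ND5, at 0.72 (SE 0.283, adjusted p = 0.0669). Of the 74 nuclear genes 5 were higher in this sense: COX5B, COX6B2, NDUFB5, NDUFS7 and NDUFS8. NDUFS7 and NDUFS8 carry iron-sulphur clusters in the arm of complex I that passes electrons to ubiquinone. They fell by 0.47 and 0.47 after knockdown and had values of -0.01 and -0.10 with selinexor. NDUFA6, NDUFC2 and NDUFS1 were lower. NDUFS1, the largest core subunit of complex I, changed by -0.39 with selinexor (adjusted p = 0.00965) and by -0.02 after knockdown (adjusted p = 0.567), a difference of -0.37 (adjusted p = 0.0135). These 8 genes are named because they were called, after their values were seen.

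Without selinexor replicate 1, 9 mitochondrial genes had a larger selinexor than knockdown effect and 1, MT-ND3, a smaller one. The differences were 1.28 for MT-ND4 (SE 0.105, adjusted p = 2.52e-08), 1.06 for MT-ND5 and -0.41 for MT-ND3 (adjusted p = 0.00225). The 9 and the 1 were 0 and 0 with all 12 libraries. The share of all genes called in this fit was not computed, so these counts have no background beside them. Leaving out the same library raised the shares of all genes called with selinexor, from 22.9% to 28.2% higher and from 26.3% to 33.9% lower. Dose, agent and time all differ between the comparisons, at 24 h and 72 h, and cannot be told apart.

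Selinexor replicate 1 differed from replicates 2 and 3 in a way that followed base composition. Its log2 difference from their mean, over the 74 nuclear genes, had a Pearson r of 0.67 and a Spearman rho of 0.59 with the GC content of the transcript. Over 15469 genes with a GC value the same figures were 0.49 and 0.61. The lowest of the 87 was MT-ND3, with 40.2% GC, at -2.33, and the highest was ATP5D, which encodes the delta subunit of complex V, with 69.3% GC, at 0.85. All 13 mitochondrial genes were lower in replicate 1, with a median of -1.28, beside -0.28 for the nuclear genes. Across these 13 the Pearson r and Spearman rho were 0.58 and 0.52 with GC content, and 0.63 and 0.65 with length. With length they were -0.08 and 0.14 across the nuclear genes. Nuclear genes near 40% GC spread widely, NDUFA4 (40.4%) at -1.10 and NDUFB5 (40.3%) at -0.19. Of the nuclear genes 60 were lower and 14 higher. With a GC trend removed from each library, 40 nuclear genes were lower and 3 higher with selinexor. The share of all genes called in that fit was not computed, so these counts have no background. The cause of this library's distance was not tested.

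**Figure D5:**
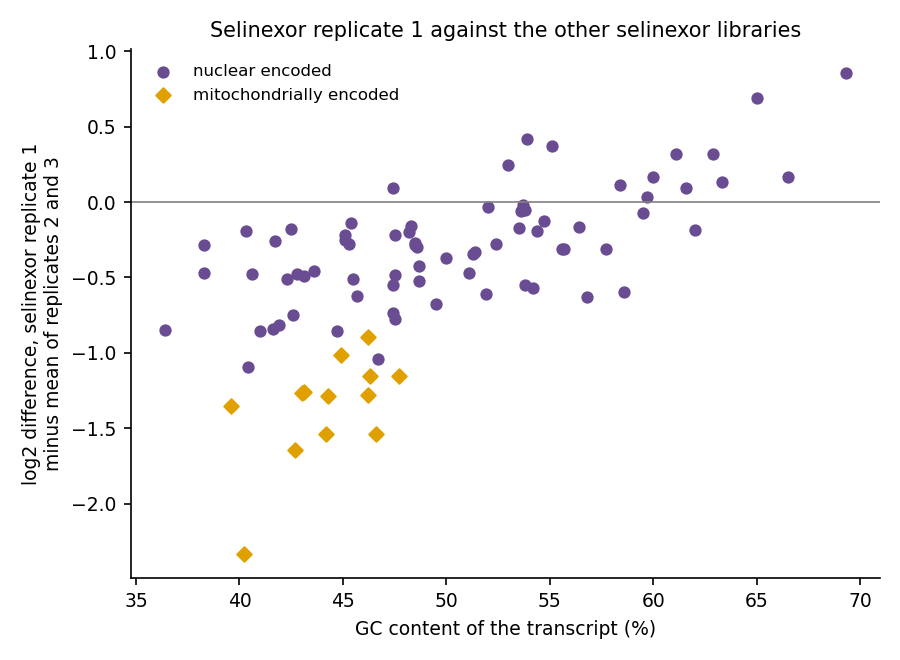
log2 difference of selinexor replicate 1 from the mean of selinexor replicates 2 and 3 (y axis) against GC content in % (x axis). Each point is a gene, nuclear (circles) or mitochondrial (diamonds); mitochondrial genes lie at -0.90 or below, and nuclear genes rise with GC content.

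Genes that make, process or regulate OXPHOS transcripts were followed as lists. Their counts stand beside 26.3% lower and 22.9% higher over all genes with selinexor, and 28.6% and 25.9% after knockdown. Of 45 assembly factors 21 were lower and 1 higher with selinexor, and 25 lower and 1 higher after knockdown. UQCC2, a complex III assembly factor, changed by -0.87 and -0.59, and UQCC1, its partner, was the 1 that was higher, by 0.34 and 0.21. COA7 changed by -0.89 with selinexor, and SURF1, a complex IV assembly factor, by -0.38 after knockdown. Of the 10 tested subunits and partners outside the symbol rule (COX6B2 is also in that list) 5 were lower and 2 higher with selinexor, and 7 lower and 0 higher after knockdown. CYCS, the electron carrier cytochrome c, changed by -1.07 and -0.44, and CYC1, cytochrome c1 of complex III, by -0.39 and -0.47. Of 19 genes of the TCA cycle and pyruvate dehydrogenase 7 were lower and 0 higher, or 12 lower without selinexor replicate 1, and 12 lower and 1 higher after knockdown. The 7 are 36.8% of the list, not far from the share over all genes. FH, fumarate hydratase, changed by -0.80 and -0.54, and IDH2 by -0.74 and -0.38.

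Genes of mitochondrial transcription and mtDNA upkeep did not move as 1 block. Of 18 tested, 8 were lower and 2 higher with selinexor, and 7 lower and 5 higher after knockdown. RRM2B, a p53-inducible ribonucleotide reductase subunit that supplies nucleotides for mtDNA, had means of 756 ± 18.2 with DMSO and 3227 ± 949 with selinexor (SD, n = 3). It changed by 2.05 (adjusted p = 9.51e-05) and, after knockdown, by 1.49 (adjusted p = 8.35e-11). TFAM, which packages mtDNA and starts its transcription, changed by -0.86 and -0.14. POLRMT, the mitochondrial RNA polymerase, was at 0.21 with selinexor (adjusted p = 0.32; -0.004 without selinexor replicate 1) and changed by -0.34 after knockdown. Of 21 genes of mitochondrial RNA processing and stability 15 were lower with selinexor and 0 higher, and 9 lower and 2 higher after knockdown. SLIRP, which stabilises mitochondrial mRNAs with LRPPRC, changed by -0.64 and -0.41, and LRPPRC by -0.25 and -0.15.

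Among 15 regulators of mitochondrial biogenesis tested with selinexor, 8 were lower and 3 higher, and of 14 after knockdown 5 were lower and 4 higher. One of the 3, ESRRB, had means of 2.06 with DMSO and 19.1 with selinexor and reached the minimum mean of 10 only through the group where it is high, which leaves 2 others. PPARGC1A, the coactivator PGC-1alpha, had means of 1132 ± 8.17 with DMSO and 2266 ± 179 with selinexor, and of 1146 ± 28.8 with control siRNA and 2162 ± 37.3 with XPO1 siRNA (SD, n = 3). Its log2 changes were 0.997 (adjusted p = 4.79e-05) and 0.92 (adjusted p = 9.73e-10). PPARGC1B, the related PGC-1beta, changed by -0.89 and -1.05, so the 2 coactivators moved in opposite directions in both comparisons. NRF1 changed by -0.67 and -0.39, and GABPB1 by -1.07 and -0.42. ESRRA, the receptor ERR-alpha, changed by 0.79 and 0.28.

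Some genes listed as cell type markers also changed in this cell line. Fibroblast markers summed to 5210 to 5431 with DMSO and 3270 to 3799 with selinexor. Most of this was PDGFRA, at means of 4088 and 2142, which fell by 0.94 on the log2 scale. COL1A1 had means of 675 and 987, a log2 value of 0.415 not past the threshold (-0.008 without selinexor replicate 1). With selinexor 3 of 5 tested were lower, where 26.3% of all genes were. LUM, 1 of the 3, passed the minimum mean only through the DMSO libraries. After knockdown 4 of 5 were lower, COL1A1 by 0.298 among them, where 28.6% of all genes were. The fibroblast sum was then 5535 to 5790 with control siRNA and 3834 to 3993 with XPO1 siRNA. CDH5 was the 1 leukocyte or endothelial marker higher in each comparison, from 28.8 to 60.8 and from 34.5 to 79.0. Of 9 neuroblastoma markers tested, 7 were higher and 0 lower in each comparison. Over all genes 22.9% were higher with selinexor and 25.9% after knockdown. The selinexor count includes STMN2, with means of 4.95 and 27.8, which passed the minimum mean only through the selinexor libraries. Their part in the OXPHOS values was not tested.

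The promoter windows of the nuclear genes were read for motifs of the named regulators. RefSeq windows of 250 bases before to 50 after the start (GRCh38.p14) were matched for 62 of the 75 nuclear genes, and 27305 windows of all genes served as comparison. NRF1's GCGCATGC, on either strand, was in 13 of 62 (21.0%) against 3.27% of all windows. The ETS motif CCGGAAG, which GABP binds, was in 18 (29.0%) against 10.7%, and YY1's AAGATGG in 16 (25.8%) against 6.06%. The ERR motif TCAAGGTCA was in 1 (1.61%) against 0.359%, and the SP1 motif GGGCGG in 37 (59.7%) against 44.6%. Of the 21 windows of genes lower with selinexor 10 held the ETS motif, and of the other 41 it was in 8. For NRF1's motif the counts were 4 of 21 and 9 of 41. For YY1's motif they were 6 of 21 and 10 of 41. After knockdown, of 51 lower genes and 11 others, 12 and 1 held NRF1's motif, 16 and 2 the ETS motif, and 14 and 2 YY1's. No test was made of these counts.

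The 150 bases before the start are printed for the gene with the smallest knockdown p among those lower in both comparisons that holds NRF1's motif there (ATP5I, subunit e of complex V), the ETS motif (COX8A) and YY1's motif (ATP5L, subunit g of complex V), and for NDUFA5, the 1 nuclear gene higher after knockdown. They run 5′ to 3′ on the gene's strand, with matches to any of the motifs, on either strand, in capitals. Coordinates are GRCh38.p14: chr4:674277-674426 (minus), chr11:63974470-63974619 (plus), chr11:118401456-118401605 (plus) and chr7:123601652-123601801 (minus).
ATP5I: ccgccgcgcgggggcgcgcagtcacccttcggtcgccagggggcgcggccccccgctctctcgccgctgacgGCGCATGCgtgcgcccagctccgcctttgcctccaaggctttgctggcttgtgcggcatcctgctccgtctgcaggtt
COX8A: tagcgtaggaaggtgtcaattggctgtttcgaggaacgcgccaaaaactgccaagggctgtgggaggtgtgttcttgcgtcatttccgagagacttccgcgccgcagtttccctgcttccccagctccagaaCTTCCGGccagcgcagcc
ATP5L: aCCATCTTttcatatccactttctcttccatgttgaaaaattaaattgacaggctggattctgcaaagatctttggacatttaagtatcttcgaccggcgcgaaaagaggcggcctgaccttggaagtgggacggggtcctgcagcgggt
NDUFA5: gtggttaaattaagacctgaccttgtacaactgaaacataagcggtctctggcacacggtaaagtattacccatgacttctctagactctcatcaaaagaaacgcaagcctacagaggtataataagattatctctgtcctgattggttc
COX8A and ATP5L carry their match on the opposite strand, and the NDUFA5 stretch holds none of these letters. A match is a string of letters and not a bound site. The RefSeq starts of the windows were not checked against those of the counted genes, whose coordinates are in hg19. The NDUFA5 stretch, like any other window, may therefore lie away from the start of the counted gene.

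The pseudogene rows are given separately from the parent genes. Of 10 tested in each table, 2 were higher and 0 lower with selinexor, and 0 higher and 3 lower after knockdown. These calls are 20% and 30% of the 10. They are near the shares over all genes, 22.9% higher with selinexor and 28.6% lower after knockdown. One of the 3 lower after knockdown, ATP5A1P7, passed the minimum mean only through the control libraries. Medians were 0.14 and -0.21, the second the same as for the nuclear subunits. Their reads can come from the parent mRNA, so these values are uncertain. ATP5S had values of -0.15 with selinexor and 0.02 after knockdown, neither past the threshold. ATP5SL had a value of 0.05 with selinexor and changed by -0.15 after knockdown (adjusted p = 0.0171, limma).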

How the data were processed

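Gene-level RNA-seq of 12 IMR5 libraries was used, and titles gave group and replicate. The submitters' processing notes name STAR 2.7.3a, Partek, DESeq2 and hg19. Not given in the sources used here are the annotation, how reads with several matches were handled, and strand. The deposited signal is a gene's count over a size factor that the authors set for each library, within each of the 2 tables. Low values (0.3 to 60) fell on whole reads, within 0.02, in 62.0% to 66.8% of cases, so no count model was fitted, and depth is an estimate. A further 3 columns of the knockdown table match no sample here and were not used.

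Genes with a mean of 10 or more over the 6 libraries entered limma 3.58.1 (R 4.3.3; lmFit, then eBayes with trend) on log2(value + 1), two-sided, Benjamini-Hochberg adjusted over all genes, at 0.05. Fold changes are on that scale and come out too small where values are low. The difference of effects used 4 group means over 12 libraries. The fit was tested on simulated data. Every adjusted p in the text is from limma. Shares and ratios have no test. GC content and length came from GENCODE 29, which covered 82.4% of genes in the selinexor table and 83.2% in the knockdown table. Plots were drawn with matplotlib 3.10.9, and tables made with pandas 2.3.3 and numpy 2.4.6 under Python 3.11.15.

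Named genes are the 13 mitochondrial genes, up to 3 called nuclear genes per complex with the smallest p in each comparison, the largest rises and falls, those called against the majority, the tissue isoforms, and up to 3 called genes per list; further ones were chosen after their values were seen. Members and lists were chosen with earlier results of these data known. Alternatives covered the pseudocount, the minimum mean, scaling, the trend, the replicate block and leaving out each library; removal of a GC or length trend was added after seeing the data.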

Additional observations from a re-analysis of the deposited data

How the results depend on the processing

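The 13 mitochondrial genes were higher after knockdown in every alternative run, and the nuclear median kept its sign in both comparisons; over the main counts, medians and shares, 313 values under an alternative stayed within their spread or within 1.5 times, 54 moved and 3 reversed. With equal totals, nuclear genes higher were 3 with selinexor and 3 after knockdown, the knockdown median was -0.12, and 7 nuclear genes were lower in the difference of effects. With equal totals without mitochondrial genes and RN7SL, nuclear genes with selinexor were 4 higher and 15 lower with a median of -0.10; after knockdown 3 were higher with a median of -0.13; the difference had 1 mitochondrial and 10 nuclear genes higher. Without the trend, 5 mitochondrial genes were higher with selinexor, 0 nuclear genes higher after knockdown and 3 in the difference. A minimum mean of 50 left 0 nuclear genes higher with selinexor. Removing a GC trend gave 3 nuclear genes higher and 40 lower with selinexor, 2 higher after knockdown, and 2 mitochondrial higher and 7 nuclear lower in the difference. Removing a length trend gave a knockdown median of -0.17, and 2 nuclear higher and 7 lower in the difference. Leaving RN7SL out of the totals gave knockdown share changes of 0.0725 (mitochondrial) and -0.0936 (nuclear) percentage points, against 0.0652 and -0.0728, and a nuclear change with selinexor of -0.0589, against -0.0902. The causes were not tested. Shares of all genes called in these alternatives and those below were not computed, except for selinexor against DMSO without selinexor replicate 1.

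Leaving out 1 library at a time gave 5 to 13 mitochondrial genes higher with selinexor, 1 to 6 nuclear genes higher and 14 to 40 lower, and a complex IV median of -0.35 to 0.07. After knockdown 0 to 2 nuclear genes were higher. In the difference 0 to 9 mitochondrial genes were higher and 0 to 1 lower, with a median of -0.04 (without selinexor replicate 2 or 3) to 0.67, and 2 to 16 nuclear genes were higher and 2 to 14 lower, with a median of -0.16 to 0.06. Deviations of same-numbered libraries from their group means had r from -0.042 to 0.119 in the selinexor table. In the knockdown table r was from -0.104 to -0.020. Removing the mean of 3 libraries makes such values balance near 0, so they cannot exclude that the numbers pair the libraries. With a replicate block 0 nuclear genes were higher after knockdown, and no other count moved by over 1.5 times. At an estimated 26.8 M reads or more, depth limits mainly COX6B2, MT-ND6 and MT-ATP8.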
